A study of Mus musculus with 141 samples.

Results

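Forkhead transcription factors are the genes named Fox, and 43 of the 24423 genes in the files carried such a name once Foxa1, Foxa2 and Foxa3, the liver and endoderm factors of the FoxA group, had been left out of 46 matches. Membership rested on the gene symbol alone. Of the 43 genes, 41 code for a protein, and Foxd2os and Foxl2os are noncoding RNAs that lie beside Foxd2 and Foxl2. RNA-seq of ribosome-depleted total RNA had been made from whole liver, lung and kidney of 1 male mouse from each of 47 Collaborative Cross (CC) strains, which gave 47 libraries per tissue. CC strains are inbred mosaics of a common set of founder genomes. All animals were 8 to 12 weeks old, ate the NTP 2000 diet and had spent 6 hours on weekdays over 2 weeks in chambers supplied with clear air. There was no other treatment or genotype group, so the comparisons are between organs of the same mice and across strains. With 1 mouse per strain, the strain and the individual mouse cannot be told apart.

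All forkhead proteins share a DNA-binding domain of winged-helix form, in which the third helix lies in the major groove of the DNA. The groups differ outside that domain and in where they are made. FoxF proteins act in mesenchyme downstream of Hedgehog signals, FoxJ1 switches on the genes of motile cilia, FoxI1 directs the acid-secreting intercalated cells of the collecting duct, FoxM1 drives the genes of mitosis, and FoxO proteins are moved out of the nucleus when insulin signals through Akt. In adult organs, the tissue-restricted members are known as markers of particular cell types, and Foxk1, Foxk2, Foxn2, Foxn3, Foxo1, Foxo3 and Foxo4 as factors of most cells.

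The gene stretch that codes for this recognition helix is shown because it is what defines the family. It was searched for as a fixed amino acid pattern, so a member without a match need not lack the helix. A match was found in 34 of 40 annotated coding members, as 42 bases or 14 codons. The search used the GENCODE vM1 annotation of the NCBIM37 mouse genome, which is the reference (C57BL/6J) sequence. Capitals mark the bases at which a gene differs from the most common base among the 11 genes printed, and 19 positions were the same in all 11. Each stretch is coding sequence, and those of Foxj1, Foxm1, Foxk2 and the FoxO genes are divided by an intron after base 6. The lung pair Foxf1 at chr8:123608572-123608613 and Foxf2 at chr13:31718378-31718419, both on the plus strand, differed at 1 base, 41 of 42 being identical.
Foxf1: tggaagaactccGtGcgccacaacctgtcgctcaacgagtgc
Foxf2: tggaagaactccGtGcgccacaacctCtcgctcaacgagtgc
The kidney members Foxc1 at chr13:31899440-31899481 and Foxc2 at chr8:123640857-123640898, both on the plus strand, and the liver member Foxq1 at chr13:31651260-31651301 on the plus strand each had their own changes.
Foxc1: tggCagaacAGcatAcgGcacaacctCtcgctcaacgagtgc
Foxc2: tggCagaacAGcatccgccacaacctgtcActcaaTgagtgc
Foxq1: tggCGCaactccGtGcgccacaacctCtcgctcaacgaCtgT
Foxj1 lies at chr11:116193756-116195361 on the minus strand and Foxm1 at chr6:128319498-128321010 on the plus strand, coordinates that include the intron.
Foxj1: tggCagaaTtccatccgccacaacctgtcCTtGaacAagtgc
Foxm1: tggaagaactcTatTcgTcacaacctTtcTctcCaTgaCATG
The broadly expressed members Foxk2 at chr11:121152199-121157378 and Foxo1 at chr3:52073339-52148996 on the plus strand, Foxo3 at chr10:41917672-41994627 on the minus strand and Foxo4 at chrX:98450607-98453551 on the plus strand share the intron.
Foxk2: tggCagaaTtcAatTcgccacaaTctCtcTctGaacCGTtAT
Foxo1: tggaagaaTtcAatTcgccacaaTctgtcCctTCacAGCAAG
Foxo3: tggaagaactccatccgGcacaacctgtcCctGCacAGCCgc
Foxo4: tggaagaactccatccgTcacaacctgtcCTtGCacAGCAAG
Over all pairs of the 11 genes the identity ran from 24 to 41 of 42 bases with a median of 30. Of the 34 stretches, 14 held an intron, always after base 6, and 20 held none.

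The libraries held between 1738046 and 42158453 expected counts (estimated reads per gene summed over genes), with a median of 9043226. Defining genes of each organ were highest in the organ named on the label, for example albumin (Alb) at a median of 57374 transcripts-per-million (TPM) in liver against 89.7 in lung. The kidney library of strain CC020 stood apart. Its 10 mesenchymal marker genes summed to 828 counts-per-million (CPM) against 267 in the next kidney and a median of 108, its 12 proliferation genes to 158 CPM against 110 and a median of 18.8, and its 9 intercalated cell genes to 84.7 CPM, the lowest of 47 kidneys. No call below changed when this strain was left out of the tissue comparison. Low TPM values tended to come from the same libraries. Among members above 0 in every library of a tissue, the lung of CC015 was the lowest for 11 of 16, the liver of CC033 for 7 of 11 and the kidney of CC027 for 6 of 14.

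By TPM, a scale that divides by transcript length and so allows genes to be set side by side, 21 of the 43 members reached a median of 1 in at least 1 tissue and 9 did so in all 3. Lung had 19 such members (44.2%, beside 51.1% of all genes), kidney 14 (32.6% beside 44.4%) and liver 10 (23.3% beside 37.0%). The highest median was in lung for 16 of the 21, in kidney for 4 and in liver for Foxq1 alone. The share of all genes with their highest median in lung was not counted, and the TPM scale moved all genes towards lung, as given below. Lung Foxf1 was the most abundant, with a median of 158 TPM, followed by lung Foxn3 at 86.5, Foxo3 at 56.4 and Foxj1 at 51.5 TPM. The ranges of the last 2 overlapped widely (22.4 to 118 and 13.9 to 105 TPM), so their order is within the spread over strains.

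**Figure D1:**
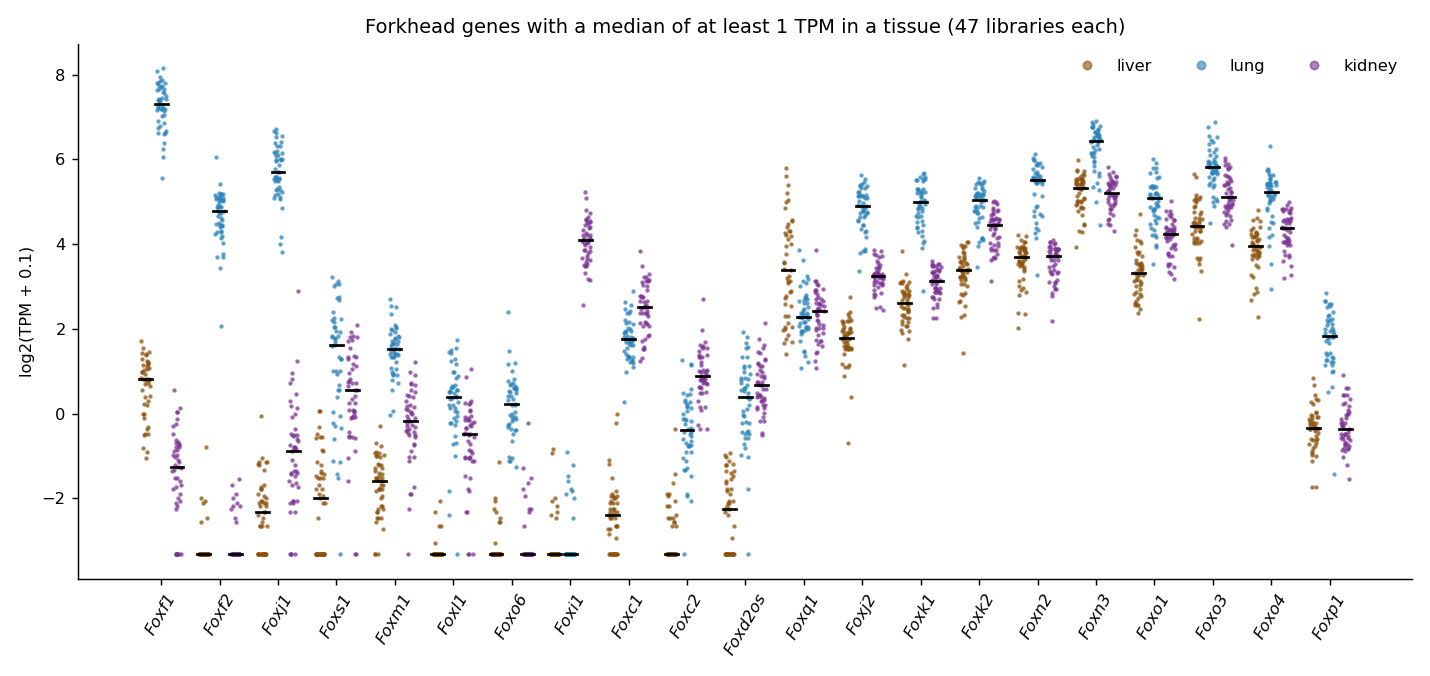
Levels of the 21 forkhead genes with a median of at least 1 TPM in a tissue, as log2(TPM + 0.1) on the vertical axis. Each point is 1 library (47 per tissue), colours are tissues and black bars are medians, and Foxf1, Foxf2 and Foxj1 of lung and Foxi1 of kidney stand clear of the other tissues. The highest kidney value of Foxj1 is 7.29 TPM, below the lowest lung value of 13.9 TPM.

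Differences between tissues were tested with limma-voom on the counts with strain as a block, and a gene was called at an adjusted p of at most 0.1 (Benjamini-Hochberg over 12127 genes) and a log2 fold change of at least 1 in size. Of the members, 20 passed the low-count filter. Between liver and lung, 9 of these 20 were called higher in lung, where 31.2% of all tested genes were, and 2 were called higher in liver, where 23.7% of all genes were. Between lung and kidney, 8 were called higher in lung against 24.6% of all genes, and 3 higher in kidney against 21.7%. Between liver and kidney, 2 were called higher in liver against 14.7% of all genes, and 5 higher in kidney against 22.0%. The median log2 fold change of the 20 members was -0.85 for liver minus lung, 0.29 for lung minus kidney and -0.03 for liver minus kidney, beside -0.07, -0.02 and -0.07 over all tested genes. The 3 comparisons share libraries and are not independent of each other. The filter asked for a CPM over 1 in at least 30% of all libraries, which 1 tissue could meet alone. Foxf2 passed through lung only (highest CPM 0.57 in liver and 0.40 in kidney). Foxi1 passed through kidney only (highest 0.70 in liver and 0.20 in lung). Foxj1 passed mainly through lung (medians 0.17 in liver and 0.31 in kidney). For these genes passing already implied a higher level in that tissue, so their calls are not independent of the filter. These are whole-organ samples, in which fewer cells of a type and less RNA per cell cannot be told apart.

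The FoxF members, known from the lung mesenchyme, were far higher in lung than elsewhere. Foxf1 (chr8:123608286-123610851, plus strand, NCBIM37), needed for the formation of lung vessels and mesenchyme, had a lowest, median and highest value of 46.7, 158 and 284 TPM in lung, of 0.38, 1.65 and 3.17 TPM in liver and of 0, 0.32 and 1.37 TPM in kidney. The lung values did not overlap those of either other tissue, and in every strain Foxf1 was highest in lung and lowest in kidney. The log2 fold change was -5.20 for liver minus lung (SE 0.09, limma adjusted p = 5.04e-77) and 8.23 for lung minus kidney (SE 0.10, adjusted p = 1.71e-88). Liver also exceeded kidney, by 3.02 on the log2 scale (SE 0.10, adjusted p = 5.92e-51) and in 47 of 47 strains, although the ranges overlapped. That value rested on low counts, with a median of 13 counts per library in liver and 2 in kidney, and it was under the fold threshold on the log2(TPM + 1) scale (0.90).

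Foxf2 (chr13:31717685-31723272, plus strand), the relative of Foxf1 in mesenchyme and pericytes, had values of 4.09, 27.2 and 66.1 TPM in lung. No liver or kidney library held more than 3 counts of it, and 41 livers and 37 kidneys held none. The groups did not overlap, and Foxf2 entered the test through lung alone. The fitted log2 fold changes were -6.98 for liver minus lung (SE 0.12, limma adjusted p = 3.07e-76) and 7.46 for lung minus kidney (SE 0.12, adjusted p = 1.17e-78), and with counts this low outside lung their size depends on the small offset the fit adds to every count. Foxl1, a mesenchymal gene downstream of Hedgehog signals in the gut, was at 0, 1.21 and 3.22 TPM in lung, 0, 0.62 and 1.97 TPM in kidney and 0, 0 and 0.14 TPM in liver. Its counts were too low to be tested and its lung and kidney ranges overlapped. Foxs1, known from pericytes, was at 0, 2.97 and 9.26 TPM in lung, 0, 1.36 and 4.18 TPM in kidney and 0, 0.15 and 0.95 TPM in liver. It was lower in liver than in lung by a log2 fold change of -1.83 (SE 0.22, limma adjusted p = 5.4e-13) and than in kidney by -1.50 (SE 0.22, adjusted p = 9.58e-10), and lung and kidney were not called different (0.33, SE 0.22, adjusted p = 0.144).

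Other genes of these cells and of the Hedgehog pathway pointed the same way in most cases. Of 9 tested mesenchymal markers, 6 were higher in lung than in liver, 1 (fibronectin, Fn1) was higher in liver, and 9 were higher in lung than in kidney. Of 8 tested genes of Hedgehog signalling, which lies upstream of the FoxF genes and Foxl1, 6 were higher in lung than in liver and 1 higher in liver, and 6 were higher in lung than in kidney and 2 higher in kidney. The ligand Shh and the transcription factors Gli1 and Gli2 had log2 fold changes of -4.12, -4.05 and -3.82 for liver minus lung. Of 6 tested endothelial markers, 6 were higher in lung than in liver and 5 higher than in kidney. The part of cell content in the FoxF values was not tested.

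Foxj1 (chr11:116192018-116196713, minus strand), the switch for motile cilia, was at 13.9, 51.5 and 105 TPM in lung, 0, 0.10 and 0.86 TPM in liver and 0, 0.44 and 7.29 TPM in kidney. Lung did not overlap either tissue. The log2 fold change was -7.04 for liver minus lung (SE 0.13, limma adjusted p = 9.16e-75) and 6.16 for lung minus kidney (SE 0.11, adjusted p = 7.6e-73), each in 47 of 47 strains. All 14 tested markers of ciliated cells, such as genes of axonemal dyneins and radial spokes, were also higher in lung than in both other tissues. In kidney the highest Foxj1 value was that of CC020, at 6.81 CPM against 2.70 in the next kidney and a median of 0.31. The ciliated cell genes of that library summed to 13.95 CPM, rank 28 of 47 and under the kidney median of 15.5 CPM.

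Foxm1 (chr6:128312985-128325911, plus strand), which drives entry into and passage through mitosis, was at 0.88, 2.78 and 6.39 TPM in lung, 0, 0.78 and 2.24 TPM in kidney and 0, 0.23 and 0.72 TPM in liver. The tissues overlapped, yet lung exceeded liver in 46 of 47 strains and kidney in 46 of 47. Its log2 fold change was -2.05 for liver minus lung (SE 0.13, limma adjusted p = 2.93e-27) and 1.24 for lung minus kidney (SE 0.13, adjusted p = 5.25e-15). Of 9 tested proliferation genes, 8 were higher in lung than in liver and 3 higher in lung than in kidney. The highest kidney value of Foxm1 was again that of CC020, at 3.57 CPM against 2.37 in the next.

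Foxo6, a FoxO member best known from brain, reached 0.32, 1.07 and 5.16 TPM in lung and was not tested. In liver its highest value was 0.35 TPM and in kidney 0.75 TPM, and 38 livers and 37 kidneys held no count. Foxp1, a repressor in lung epithelium and lymphocytes, was at 0.27, 3.46 and 7.04 TPM in lung, 0.20, 0.69 and 1.69 TPM in liver and 0.24, 0.67 and 1.77 TPM in kidney. It was called higher in lung than in kidney (log2 fold change 1.65, SE 0.09, limma adjusted p = 3e-32, 46 of 47 strains) and fell short of the fold threshold against liver (-0.83, SE 0.09).

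Foxi1 (chr11:34104338-34108089, minus strand), the factor of intercalated cells, was at 5.82, 17.0 and 37.2 TPM in kidney. The highest lung value was 0.43 TPM and the highest liver value 0.46 TPM, and 38 lungs and 39 livers held no count. Kidney thus stood clear of both, and Foxi1 entered the test through kidney alone. The fitted log2 fold change was -7.99 for lung minus kidney (SE 0.12, limma adjusted p = 2.59e-81) and -6.84 for liver minus kidney (SE 0.12, adjusted p = 4.15e-75), again with a size that depends on the offset. Between liver and lung the fitted value is not read as a fold, since both were at the limit of detection. It is 1 of the 2 genes in the count called higher in liver than in lung. All 8 tested intercalated cell markers, among them proton pump subunits and anion exchangers, were higher in kidney than in liver, and 7 of the 8 higher than in lung.

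Foxc1 (chr13:31898515-31902504, plus strand), a factor of mesoderm, eye and kidney development, was at 2.27, 5.60 and 14.2 TPM in kidney, 1.10, 3.27 and 7.33 TPM in lung and 0, 0.09 and 0.90 TPM in liver. Kidney did not overlap liver, and lung lay between them. The log2 fold change was -4.74 for liver minus kidney (SE 0.12, limma adjusted p = 1.45e-59), -3.41 for liver minus lung (SE 0.12, adjusted p = 1.6e-47) and -1.33 for lung minus kidney (SE 0.11, adjusted p = 2.53e-20). The last of these lost its call with total counts (-0.85), log2(TPM + 1) (-0.61) and log2(TPM + 0.1) (-0.73). Foxc2 (chr8:123640071-123642792, plus strand), its partner in lymphatic vessels and podocytes, was at 0.67, 1.74 and 6.37 TPM in kidney, 0, 0.66 and 2.30 TPM in lung and 0, 0 and 0.67 TPM in liver. It followed the same order, with log2 fold changes of -3.51 for liver minus kidney (SE 0.17, limma adjusted p = 2.4e-37) and -1.95 for lung minus kidney (SE 0.16, adjusted p = 2.22e-20). The second lost its call with log2(TPM + 1) (-0.73), as did liver minus lung (-1.56 in the fit and -0.70 on that scale). The highest kidney Foxc2, in strain CC004, was 8.10 CPM against 3.18 in the next kidney. Of 9 tested podocyte markers, 7 were higher in kidney than in liver and 1 higher in liver. Between lung and kidney, 2 were higher in kidney and 2 higher in lung.

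The noncoding Foxd2os was at 0.60, 1.49 and 4.28 TPM in kidney, 0, 1.22 and 3.72 TPM in lung and 0, 0.11 and 0.42 TPM in liver. It was called lower in liver than in kidney (log2 fold change -2.41, SE 0.14, limma adjusted p = 2.17e-30) and than in lung (-1.54, SE 0.14, adjusted p = 2.89e-18), the latter falling just short with log2(TPM + 1) (-0.98). Whether reads were counted by strand is not given in the sources used here. Its coding neighbour Foxd2 stayed under 1 TPM in every median, at 0.55 in kidney, 0.43 in lung and 0 in liver.

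Foxq1 (chr13:31650039-31652839, plus strand), a repressor first known from the satin coat of mice, was the 1 member with its highest TPM median in liver. It was at 2.56, 10.3 and 55.7 TPM in liver, 2.01, 4.77 and 14.4 TPM in lung and 2.0, 5.23 and 14.5 TPM in kidney. The 3 ranges overlapped at their lower ends, and 46 of 47 strains had more in liver than in lung and 43 of 47 more than in kidney. The log2 fold change was 2.67 for liver minus lung (SE 0.17, limma adjusted p = 5.52e-29) and 2.10 for liver minus kidney (SE 0.16, adjusted p = 4.59e-22). On the log2(TPM + 1) scale both fell to under 1 and neither was called.

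Foxj2, Foxk1, Foxk2, Foxn2, Foxn3, Foxo1, Foxo3 and Foxo4 were present in all 3 tissues. Foxj2 and Foxk1, both widely expressed, and Foxn2 were called higher in lung than in kidney, with log2 fold changes of 1.06 (SE 0.06), 1.28 (SE 0.08) and 1.20 (SE 0.05), each in 47 of 47 strains (limma adjusted p of 1.61e-33, 4.11e-30 and 2.07e-42). Foxj2 was also higher in lung than in liver, at 10.3, 29.6 and 49.3 TPM against 0.52, 3.35 and 6.66 TPM, with no overlap (log2 fold change -1.64, SE 0.06, adjusted p = 9.67e-49). Foxk1, a repressor tied to glycolysis and autophagy, was at 7.32, 31.9 and 51.0 TPM in lung, 4.67, 8.63 and 12.0 TPM in kidney and 2.11, 5.96 and 14.1 TPM in liver. Foxn2 was at 9.61, 45.3 and 69.9 TPM in lung, 4.42, 13.0 and 17.0 TPM in kidney and 3.96, 12.8 and 18.5 TPM in liver. For both of these the liver minus lung difference was under the fold threshold (-0.88 and -0.29).

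Foxk2, the relative of Foxk1, was the most even of the 20 tested members in this fit, with a log2 fold change of -0.12 for liver minus lung, -0.02 for lung minus kidney and -0.15 for liver minus kidney (SE 0.03 each). Its TPM medians were 10.4 in liver, 32.6 in lung and 21.6 in kidney, so by TPM it ranked lung first. Foxn3, a repressor with a part in hepatic glucose production, was at medians of 40.0, 86.5 and 36.6 TPM in liver, lung and kidney. In the fit it was highest in liver, with the largest uncalled difference among these, 0.93 for liver minus kidney (SE 0.04, 47 of 47 strains). For liver minus lung its value was 0.41 (SE 0.04, 44 of 47 strains), also under the fold threshold. The 3 insulin-responsive FoxO members had close levels by this fit. Foxo1 was at medians of 9.81, 33.6 and 18.9 TPM, Foxo3 at 21.4, 56.4 and 34.5 TPM and Foxo4 at 15.3, 37.7 and 20.6 TPM in liver, lung and kidney. Their log2 fold changes for liver minus lung were -0.18 (SE 0.07), 0.08 (SE 0.07) and 0.21 (SE 0.04). For liver minus kidney they were 0.08 (SE 0.07), 0.17 (SE 0.07) and 0.45 (SE 0.04). With Foxj3, tested although its highest median was 0.80 TPM, the 6 members called in no comparison were Foxj3, Foxk2, Foxn3, Foxo1, Foxo3 and Foxo4.

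The evenness of these members depended on how libraries were scaled. The trimmed mean of M values (TMM) gave median factors of 0.632 in liver, 1.96 in lung and 1.26 in kidney. Without it, the median of all genes moved by -1.37 on the log2 scale for liver minus lung with total counts and by -1.15 with log2(TPM + 1), and by 0.48 and 0.49 for lung minus kidney. For liver minus lung Foxo3 then changed sign to -1.26 and -1.34, Foxo4 to -1.14 and -1.19, and Foxn3 to -1.04 with log2(TPM + 1). These values are near the shift of all genes itself, whereas Foxf1, Foxf2, Foxj1 and Foxm1 kept their lung excess and Foxi1, Foxc1 and Foxc2 their kidney excess over liver under all 10 alternative settings. The number of members called higher in lung than in liver rose from 9 to 17 with total counts and to 15 with log2(TPM + 1), while the share of all genes so called rose from 31.2% to 61.6% and 57.5% and that called higher in liver fell from 23.7% to 9.78% and 8.28%.

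**Figure D2:**
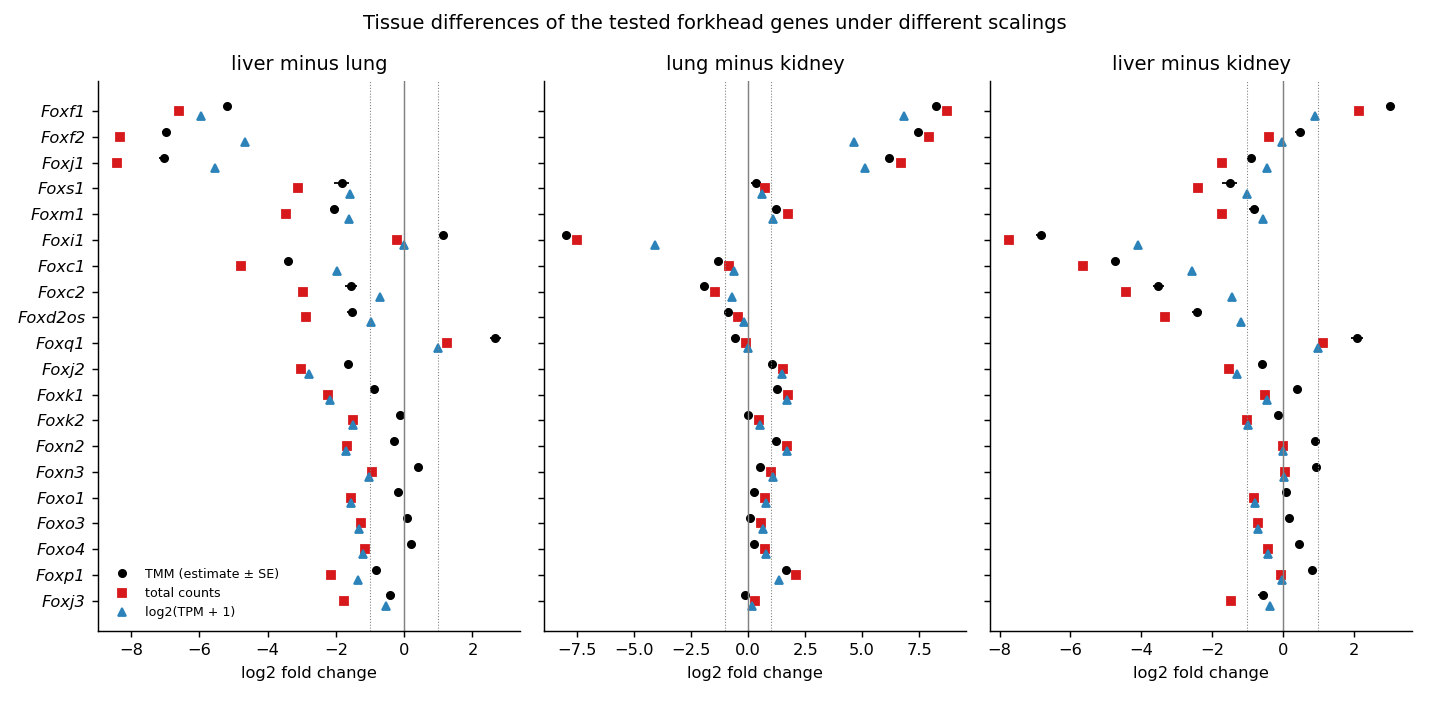
Log2 fold changes of the 20 tested forkhead genes for each pair of tissues (horizontal axis) under TMM scaling with the standard error, total counts and log2(TPM + 1). Dotted lines mark a change of 1, and in the liver minus lung panel Foxk2, Foxn3, Foxo1, Foxo3 and Foxo4 lie near 0 with TMM and near or below -1 with the other scalings.

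Genes that act before and after the FoxO proteins were also counted. Of all tested genes, 54.9% were called in either direction for liver against lung, 46.3% for lung against kidney and 36.6% for liver against kidney. Among 10 tested insulin signalling genes, the liver and lung comparison called 1 for liver and 3 for lung, that of lung and kidney called 1 for lung and 2 for kidney, and that of liver and kidney called 2 for each. The insulin receptor Insr had a log2 fold change of 2.21 for liver minus lung and the IGF1 receptor Igf1r of -3.93. Among 15 tested FoxO target genes the same comparisons called 6 for liver and 2 for lung, 1 for lung and 6 for kidney, and 3 for liver and 2 for kidney. The gluconeogenic genes G6pc and Pck1 and the binding protein Igfbp1 had log2 fold changes of 9.41, 7.42 and 9.02 for liver minus lung. These counts describe the lists and were not tested against other genes.

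The other 22 members stayed under 1 TPM in every tissue median, the highest being 0.80, and no library reached more than 2.08 TPM for any of them. For 9 of the 22 no library held more than 3 counts. These were Foxb1, Foxb2, Foxe1, Foxe3, Foxi2, Foxi3, Foxl2, Foxn1 and Foxp3, which include the factors of thyroid (Foxe1), lens (Foxe3), ovary (Foxl2), thymic epithelium (Foxn1) and regulatory T cells (Foxp3). The other low members include Foxd1, Foxd2, Foxd3, Foxd4, Foxh1, Foxj3, Foxl2os, Foxn4, Foxp2, Foxp4, Foxr1 and Foxr2. T cell genes were present in lung beside the low Foxp3, and 10 of them summed to 23.0 to 86.0 CPM per library. Of the 7 members with more than 1 listed transcript, 6 were among these 22 and Foxp1 was not. In the whole files genes with more than 1 transcript reached a median of 1 TPM less often than genes with 1, in 17.9% against 43.4% in liver, 30.8% against 57.8% in lung and 24.7% against 50.9% in kidney. The part of this difference in the values of Foxp1, Foxj3 and the other multi-transcript members was not tested.

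Sequence before the start of transcription is shown for the kidney-restricted Foxi1 and the lung-restricted Foxf2, both of which had a median of 0 TPM in the other 2 tissues. The RefSeq promoter table (GRCm38.p6) held 29 promoters of 26 members, and only the 250 bases upstream of the start were used. Capitals mark a CCAAT box (CCAAT) and GC boxes (GGGCGG), searched on both strands. The Foxi1 stretch, at chr11:34208090-34208339 on the minus strand, held 4 CpG pairs and 58.8% G and C.
Foxi1: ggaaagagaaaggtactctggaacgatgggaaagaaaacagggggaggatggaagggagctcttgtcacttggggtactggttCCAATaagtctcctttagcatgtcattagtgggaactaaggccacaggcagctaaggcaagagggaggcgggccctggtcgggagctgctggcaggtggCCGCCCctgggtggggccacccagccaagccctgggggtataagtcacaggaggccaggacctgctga
The Foxf2 stretch, at chr13:31625566-31625815 on the plus strand, held 21 CpG pairs and 71.6% G and C.
Foxf2: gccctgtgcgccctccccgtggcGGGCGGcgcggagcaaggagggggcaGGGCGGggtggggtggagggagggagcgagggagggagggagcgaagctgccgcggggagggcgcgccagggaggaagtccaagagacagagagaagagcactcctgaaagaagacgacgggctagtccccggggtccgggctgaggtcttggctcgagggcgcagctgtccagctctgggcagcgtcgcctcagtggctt
Over the 32851 promoters of the table the median was 6 CpG pairs and 52.4% G and C. A CCAAT box was present in 11 of the 29 member promoters and 33.8% of all, a GC box in 20 of 29 and 32.7%, a TATA box (TATAAA) in 1 of 29 and 12.4%, and the forkhead core motif (TGTTTAC) in 0 of 29 and 3.17%. These are matches of letters and do not show binding.

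Several of the members are neighbours in the genome. On chromosome 8 Foxf1 is followed by Foxc2 at a gap of 29.2 kb and by Foxl1 after another 9.05 kb. On chromosome 13 Foxq1, Foxf2 and Foxc1 stand in a row, with gaps of 64.8 and 175 kb. The neighbours differed in their tissue of highest TPM median, lung, kidney and lung for the first group and liver, lung and kidney for the second. Foxl1 was not tested, and by TMM-scaled CPM it was higher in lung in 28 strains and in kidney in 18. Across the 47 lungs Spearman's rho was 0.35 between Foxq1 and Foxf2, 0.12 between Foxq1 and Foxc1, 0.08 between Foxf2 and Foxc1 and -0.14 between Foxf1 and Foxl1. Across kidneys it was 0.43 between Foxq1 and Foxc1. Both genes of a pair were measured in the same libraries, and these values are descriptions.

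Spread over strains was described by the biological coefficient of variation (BCV), the relative spread left once counting error is removed. Foxq1 in liver had a BCV of 0.756 against a median of 0.232 over all genes passing the filter, at percentile 96.0. Its TPM quartiles were 5.29 and 19.8, the highest livers were those of CC036, CC035 and CC040 at 55.7, 48.3 and 41.8 TPM, and the highest value was 21.8 times the lowest. The liver of CC036 was also the shallowest library of the series, with 1738046 counts. In lung and kidney the BCV of Foxq1 was 0.310 and 0.335.

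Foxs1 in lung had a BCV of 0.691 at percentile 95.3, with a median of 9 counts per library. The other markers of cell types were less variable. Lung Foxj1 had a BCV of 0.318, kidney Foxi1 of 0.311, lung Foxm1 of 0.274, lung Foxf2 of 0.244 and lung Foxf1 of 0.219, against a median of 0.231 in lung and 0.225 in kidney. The lowest BCVs of any member were those of kidney Foxn2, Foxk2, Foxo4 and Foxn3, at 0.120, 0.122, 0.129 and 0.130 or percentiles 6.69, 7.78, 10.5 and 10.8, followed by lung Foxn3 at 0.131.

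**Figure D3:**
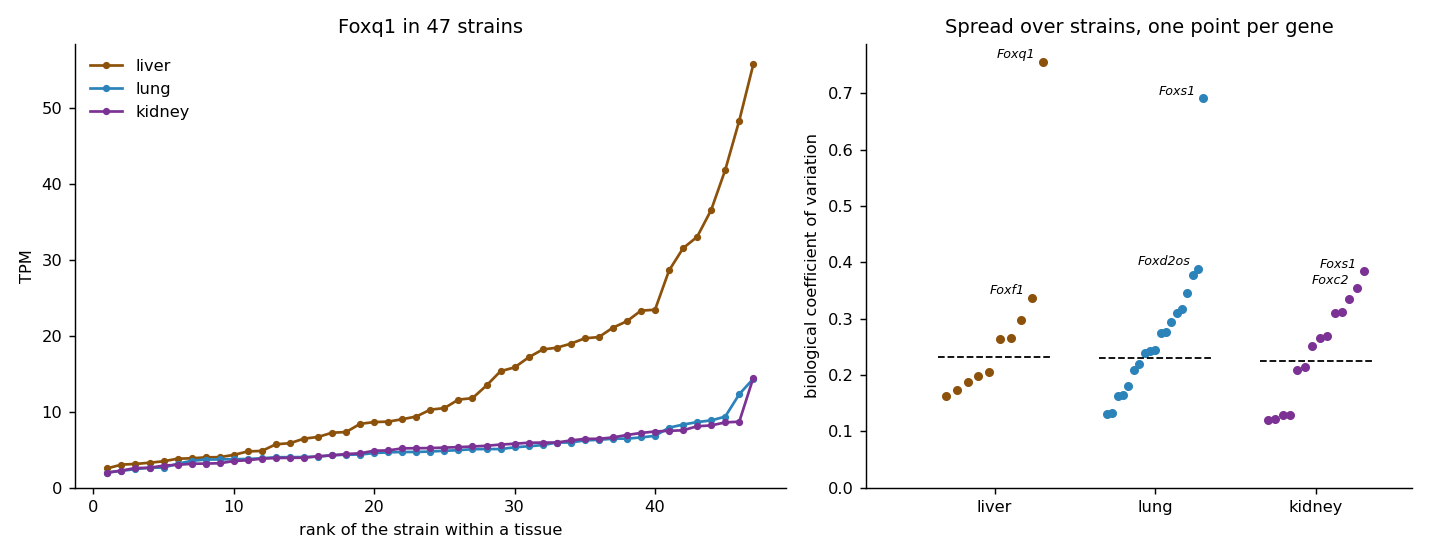
Left, Foxq1 TPM of the 47 strains in order of size within each tissue. Right, the BCV of each forkhead gene that passed the filter in a tissue (points) beside the median of all genes (dashed line), with liver Foxq1 at 0.756 and lung Foxs1 at 0.691 above the rest.

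Whether members varied with the cell types they are known from was tested across the 47 libraries of a tissue. A score was the mean of standardized log2 CPM over a fixed marker list that held no forkhead gene, and p-values came from permutations with Benjamini-Hochberg adjustment over all genes of that tissue. In lung, Foxj1 rose with the ciliated cell score (r = 0.623, rho = 0.618, permutation p = 1e-05 for each, the smallest the permutations can give, adjusted p = 0.000509). It was the 1 member called of 19, where 4.31% of all genes were called. Without the 2 strains farthest from the median score r was 0.686.

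In kidney, Foxi1 rose with the intercalated cell score (r = 0.621, rho = 0.634, permutation p = 1e-05 and 2e-05, adjusted p = 0.00979), as the 1 member called of 14 where 0.344% of all genes were called. It was 0.591 without the 2 farthest strains and 0.607 without CC020, whose library had the lowest sum of these markers. Among all genes its r stood at percentile 99.96. In lung, Foxm1 rose with the proliferation score (r = 0.552, rho = 0.493, permutation p = 3e-05 and 0.00044, adjusted p = 0.00906), as the 1 member called of 19 where 1.24% of all genes were called, and r was 0.455 without the 2 farthest strains.

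The endothelial score in lung had 4 members called of 19, where 7.63% of all genes were called. Foxf1 had an r of 0.497 (rho = 0.427, permutation p = 0.00034 and 0.00302, adjusted p = 0.0159) and 0.448 without the 2 farthest strains. Foxj2 had an r of 0.464 (rho = 0.522, permutation p = 0.00099 and 0.00011, adjusted p = 0.0288) and 0.378 without them. Foxo4 had an r of 0.516 (rho = 0.479, permutation p = 0.00022 and 0.00075, adjusted p = 0.0134) and Foxp1 an r of 0.386 (rho = 0.307, permutation p = 0.00746 and 0.0362, adjusted p = 0.0807), which became 0.403 and 0.302. The calls of Foxo4 and Foxp1 were lost when the score was the log2 of the summed CPM (adjusted p = 0.219 and 0.307), and Foxf2, Foxk1 and Foxn3 then gained one (r = 0.503, 0.481 and 0.514, adjusted p = 0.0129, 0.0209 and 0.0122). Foxf2 had an r of 0.346 with the endothelial score (rho = 0.343, permutation p = 0.0175 and 0.0176, adjusted p = 0.127) and of 0.277 with the mesenchymal score (rho = 0.248, permutation p = 0.0584 and 0.0929, adjusted p = 0.265), and neither was called by the mean score. For Foxf1 the r with the mesenchymal score was -0.185 (rho = -0.152, permutation p = 0.211 and 0.306, adjusted p = 0.498).

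The other scores had no member called. These were mesenchyme and T cells in lung, where 2.18% and 2.23% of all genes were called, podocytes, mesenchyme and proliferation in kidney (0.0557%, 0.567% and 1.06%), and FoxO targets, endothelium and proliferation in liver (0.590%, 0.00% and 0.00%). In liver only 4 of the 10 endothelial genes and 6 of the 12 proliferation genes had a median over 3 counts. The absence of calls with these liver scores is therefore hard to read. At an unadjusted permutation p under 0.05 and with a positive r there were 4 members with the podocyte score in kidney (3.01% of all genes), 2 with the FoxO target score in liver (9.38%) and 1 each with mesenchyme in lung (9.58%), mesenchyme in kidney (5.41%) and proliferation in kidney (6.24%), and 0 with T cells in lung and with endothelium and proliferation in liver. With a negative r there were 2 for T cells in lung (Foxo3 and Foxo6), 1 for podocytes (Foxk2), 2 for proliferation in kidney (Foxo3 and Foxq1), 1 for proliferation in liver (Foxo4) and 1 for FoxO targets. Among the scores with a called member, 5 of 19 had a negative r with ciliated cells in lung (Foxf2, Foxj2, Foxk1, Foxo1 and Foxp1). There were 2 with endothelium in lung (Foxc1 and Foxm1) and 1 with proliferation in lung (Foxo4). The share of all genes with a negative r at this p was not counted. With the FoxO target score the members were Foxo3 (r = 0.364, rho = 0.379, permutation p = 0.0116 and 0.00905, adjusted p = 0.25, r = 0.309 without 2 strains) and Foxo4 (r = 0.30, rho = 0.305, permutation p = 0.04 and 0.0375, adjusted p = 0.367, r = 0.356 without 2 strains). In the opposite direction stood Foxq1 (r = -0.346, rho = -0.374, permutation p = 0.0175 and 0.0102, adjusted p = 0.289, r = -0.335 without 2 strains). No member was called with a negative r by the mean score. With the log2 of the summed CPM as score, Foxo4 was called with a negative r for proliferation in lung (r = -0.498, adjusted p = 0.0374) and Foxj2 for ciliated cells (r = -0.407, adjusted p = 0.0912). With adjustment for library size, Foxm1 was called with a negative r for endothelium in lung (r = -0.356, adjusted p = 0.0997). Across these 12 scores 181 relations of members were computed.

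**Figure D4:**
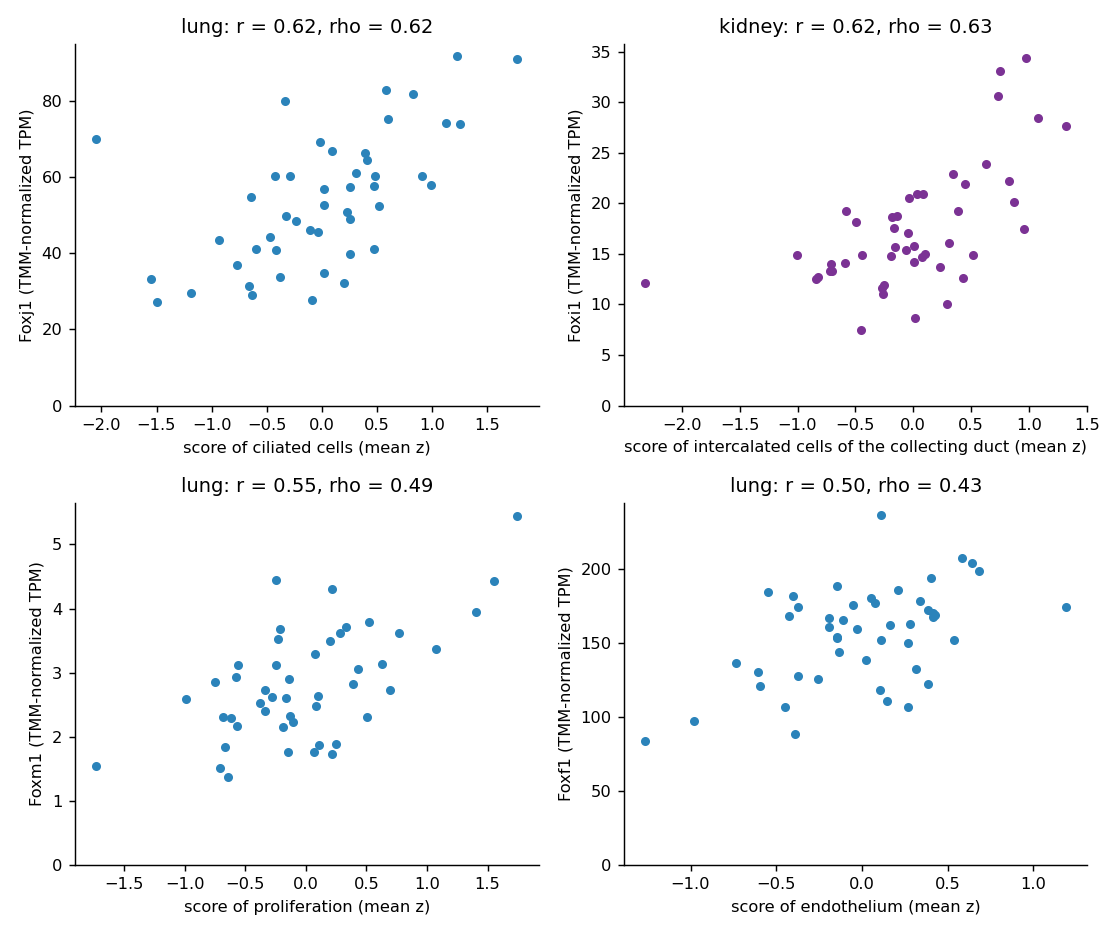
Each panel plots a forkhead gene (TMM-normalized TPM, vertical) against a marker score (mean of standardized log2 CPM, horizontal) over the 47 libraries of a tissue, 1 point per strain. The panels are Foxj1 with ciliated cells, Foxi1 with intercalated cells, Foxm1 with proliferation and Foxf1 with endothelium, with r of 0.623, 0.621, 0.552 and 0.497.

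For each member called higher in 1 tissue than in both others, the genes with the most similar values across the 47 libraries of that tissue are given as a description. All genes of a library share its depth and its mix of cells. For Foxj1 in lung they were Kif19a, Mapk15 and Dnaic2 (Spearman's rho 0.78, 0.76 and 0.73), of which Dnaic2 codes for an axonemal dynein chain. For Foxm1 in lung they were Cenpe, Hmmr and Mki67 (0.62, 0.55 and 0.55), genes of mitosis. For Foxf1 they were Id1, Jun and Gata2 (0.75, 0.75 and 0.74), for Foxf2 Mvb12b, Snai1 and Apc2 (0.70, 0.68 and 0.67) and for Foxj2 Fam65a, Phf12 and Zfhx3 (0.83, 0.82 and 0.82). In kidney they were Taf3, Casc3 and Tbp for Foxi1 (0.63, 0.63 and 0.61), Slc4a11, Irx2 and Slco4a1 for Foxc1 (0.70, 0.67 and 0.66) and Sox13, Smarcc2 and Rnf31 for Foxc2 (0.66, 0.65 and 0.65). For Foxq1 in liver they were Phlda1, Cish and Hhex (0.80, 0.70 and 0.69).

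Pairs of members were also described within each tissue, and the share over all gene pairs was not computed. A rho above 0.5 was seen in 5 of 171 pairs in lung, 6 of 91 in kidney and 1 of 45 in liver, with median rho of 0.0843, 0.118 and 0.0715. The pair of Foxj2 and Foxk1 was above 0.5 in all 3 tissues, at 0.76 in lung, 0.74 in kidney and 0.55 in liver. Each had a higher rho with genes outside the family, such as Foxk1 with Arid1a (0.92) and Foxj2 with Srrm2 (0.81) in kidney.

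Finally, the same gene was compared between organs of the same mouse across strains. Foxk2 was called in every pair of tissues, with r = 0.447 between liver and lung (rho = 0.495, permutation p = 0.0018 and 0.00055, adjusted p = 0.0269), 0.381 between liver and kidney (rho = 0.341, permutation p = 0.00842 and 0.0192, adjusted p = 0.0505) and 0.489 between lung and kidney (rho = 0.487, permutation p = 0.00047 and 0.00067, adjusted p = 0.00796). Without the 2 farthest strains the values were 0.470, 0.343 and 0.456. Foxo1 was called between liver and kidney (r = 0.365, rho = 0.275, permutation p = 0.0115 and 0.0626, adjusted p = 0.0617), and r was 0.274 without the 2 farthest strains. That made 1 of 10 members between liver and lung, 2 of 9 between liver and kidney and 1 of 12 between lung and kidney, where 13.5%, 23.1% and 16.8% of all genes were called. The median r of the members was 0.129, 0.133 and 0.0544, beside 0.136, 0.184 and 0.153 over all genes. The calls needed the TMM scaling. With TPM as deposited the r of Foxk2 was 0.0311, 0.275 and 0.0957 and that of Foxo1 0.158, and no member was called, while the share of all genes called fell to 1.33%, 15.3% and 4.02%. Foxq1, the member most variable in liver, had an r of 0.151 between liver and lung (permutation p = 0.309), -0.175 between liver and kidney (p = 0.239) and -0.241 between lung and kidney (p = 0.101). None of these was called.

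**Figure D5:**
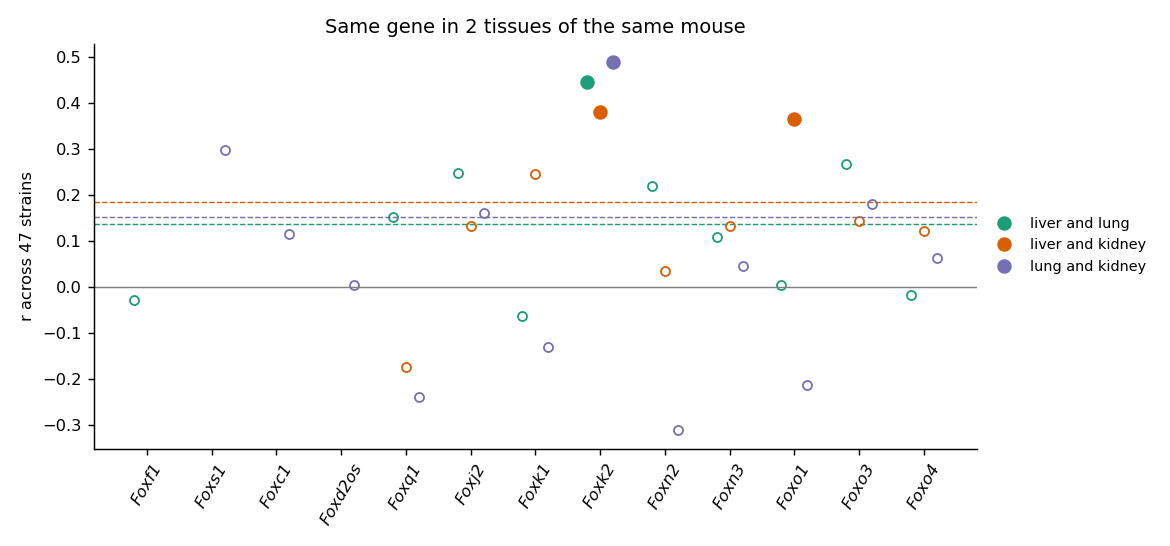
Pearson's r of each forkhead gene between 2 tissues of the same mice across 47 strains (vertical axis), for genes passing the filter in both tissues. Filled points were called, dashed lines are the medians of all genes, and Foxk2 at 0.381 to 0.489 is filled in all 3 pairs.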

How the data were processed

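Whole liver, lung and kidney of 47 CC strains were profiled by RNA-seq, 1 library per tissue and strain. The authors aligned reads with STAR 2.5.3a through RSEM to strain-specific genomes built on NCBI Build 37 (mm9) and kept uniquely aligned reads. The deposited values were expected counts, TPM (scaled by transcript length and library total) and FPKM as made by RSEM, and the FPKM values were not used here. Depth ran from 1738046 to 42158453 counts and limits members at a few counts. A floor of 3 counts was used.

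Samples were grouped by the tissue and strain labels. Counts were rounded (25 values were not whole), genes with CPM over 1 in at least 30% of libraries were kept (12127), and differences were fitted with limma 3.58.1 (voom) and TMM factors from edgeR 4.0.16 in R 4.3.3. Strain was a block, as in the methods of the study. The 3 libraries of a strain come from the same mouse, and their deviations correlated at a median of 0.167 (liver and lung), 0.212 (lung and kidney) and 0.173 (liver and kidney). The study's batch term was not in the labels and not used here. Across strains, ranks turned into normal scores were correlated with 100000 permutations, for genes over 1 TPM after TMM in more than 50% of libraries (Python 3.11.15, scipy 1.17.1). DESeq2 1.42.0 was an alternative. Procedures were tested on simulated data.

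The genes described in full were those with a median of at least 1 TPM in a tissue. Other genes named were the 3 largest fold changes of a list and the 3 genes most alike to a member called in 1 tissue against both others. The members and lists were chosen with earlier results of these data known. A few genes and sequences that these rules pick are not reported here. Recognition helix sequences came from the NCBIM37 genome with GENCODE vM1 and promoters from RefSeq.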

Additional observations from a re-analysis of the deposited data

How the results depend on the processing

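Of 597 fold changes recomputed over 60 results, 538 kept their call or lack of one. A change of sign with no call in either fit was counted among these 538. Another 37 passed the threshold only under the alternative and 11 lost it. The last 11 changed sign with a call in either fit, all of them for liver minus lung. These were Foxi1, at the limit of detection in both tissues so that no fold is read from its values (-0.071 with log2(TPM + 0.1), -0.013 with log2(TPM + 1), -0.20 with total counts), Foxn3 (-1.06 and -1.04 with log2(TPM + 0.1) and log2(TPM + 1)), Foxo3 (-1.38, -1.34 and, with total counts, -1.26) and Foxo4 (-1.25, -1.19 and -1.14). Of 108 counts of members, 84 were within 1.5 times. Higher in liver than in lung (2 members) became 1 with DESeq2 size factors, total counts, edgeR's quasi-likelihood test or log2(TPM + 0.1), 0 with log2(TPM + 1), 7 without a filter and 4 without a fold threshold. The share of all genes went from 23.7% to 19.9%, 9.78%, 23.4%, 9.1%, 8.28%, 30.8% and 45% in that order. Higher in lung than in liver (9) became 17 with total counts, 15 with log2(TPM + 1), 18 with log2(TPM + 0.1) and 15 without a fold threshold. Here the share of all genes went from 31.2% to 61.6%, 57.5%, 64.3% and 48.4%. Higher in kidney than in lung (3) became 5 without a filter, 1 with log2(TPM + 1) and 5 without a fold threshold, and the share of all genes went from 21.7% to 15.2%, 12.8% and 46.2%. Higher in liver than in kidney (2) became 0 with log2(TPM + 1) and 9 without a fold threshold, beside 14.7%, 6.76% and 40.2% of all genes. Higher in kidney than in liver (5) became 10 with total counts, log2(TPM + 0.1) or no fold threshold and 8 without a filter. The share of all genes there went from 22% to 47.8%, 47%, 47.4% and 14.4%. The cause was not tested beyond the shift of all genes.

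Without the replicate block of strain the counts were the same (2, 9, 8, 3, 2 and 5). Without the 11 strains that have a library under 4000000 counts they were 2, 8, 8, 3, 2 and 4 in that order (liver over lung, lung over liver, lung over kidney, kidney over lung, liver over kidney, kidney over liver). Leaving out CC020, an alternative chosen after seeing the data, changed no call. With TPM as deposited the same-strain counts of 1, 2 and 1 became 0 in all 3 pairs, with 0 members at an unadjusted p under 0.05. With the log2 of the summed CPM as score, 1 member was called with mesenchyme in kidney against 0. This was Foxs1 (r = 0.449), whose r by the mean score was 0.299, 0.136 without the 2 farthest strains and 0.212 without CC020. With the same score Foxf2, Foxk1 and Foxn3 gained and Foxo4 and Foxp1 lost a call with endothelium in lung, and Foxo4 (proliferation) and Foxj2 (ciliated cells) gained one with a negative r. Depth limits Foxi1, Foxf2 and Foxj1 outside their main tissue, where most libraries hold at most 3 counts.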
